A study of Saccharomyces cerevisiae with 9 samples.

Results

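The genes of the Nrd1 termination pathway and of the RNAPII CTD phosphatases were described by their nucleosome profiles in WT cells. The members are *NRD1*, *NAB3*, *SEN1*, *RRP6*, *PCF11*, *SSU72*, *RTR1* and *FCP1*, and those with a row in both deposited MNase-Seq tables were used. These were 5 of the 8 genes, *NRD1*, *NAB3*, *RRP6*, *RTR1* and *FCP1*, among 2426 protein-coding genes in all. *SEN1*, *PCF11* and *SSU72* were not analysed here. The data come from 1 sample of total histone MNase-Seq from wild type *Saccharomyces cerevisiae* in a strain background isogenic to BY4741. The sample title names no deletion, tag or treatment, and whether the strain carried a tag is not stated there. In this assay micrococcal nuclease digests the DNA between nucleosomes, so that the sequenced DNA marks where nucleosomes protected it. The other 8 samples of the series, ChIP-exo of Rpb3-FLAG and Nrd1-TAP in WT and *RTR1* deletion cells, were not analysed here.

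Nrd1 and Nab3 are RNA-binding proteins that act with the helicase Sen1 to end transcription of short noncoding RNAs by RNAPII. Nrd1 also contacts the C-terminal domain (CTD) of the largest RNAPII subunit when it carries Ser5-P, and the transcripts are then trimmed or degraded by the nuclear exosome, of which Rrp6 is an exonuclease. Rtr1, Ssu72 and Fcp1 are phosphatases of the CTD, and Pcf11 is the CTD-binding subunit of the cleavage factor that acts at mRNA 3' ends.

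The signal is read coverage in RPM, reads scaled to the size of the library, and each gene was read in 61 bins from 500 nucleotides upstream to 1000 downstream of the transcription start site (TSS). A second table holds 61 bins over 200 nucleotides on each side of the transcript end site (TES). The depletion was the mean over the bins from -125 to -50 nucleotides, the stretch that is usually free of nucleosomes, and the +1 signal was the mean over the bins from 0 to 75 nucleotides. At the 3' end, the upstream bins ran from -140 to -70 nucleotides and the TES bins from -30 to 80. Each value was ranked among all 2426 genes, and a percentile of 90 means that 90% of genes lay lower. Genes with equal values were given the middle of their ranks. With 1 sample there is no replicate, so that no test was made. Brackets hold 95% intervals for the counting of reads alone, where 1 read over a base is worth 0.03002 RPM in a library of 33313664 reads.

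All 5 genes had a lower signal in the depletion than at the +1 nucleosome, against 91.3% of all genes, so that this count does not set the members apart. They differed from each other in its depth. The ratio of +1 signal to depletion was 7.09 [5.38 to 9.42] at *RRP6*, 3.62 [2.81 to 4.69] at *FCP1*, 2.39 [1.97 to 2.91] at *RTR1*, 2.06 [1.68 to 2.54] at *NAB3* and 1.30 [1.09 to 1.56] at *NRD1*. The median gene had 2.00. With all bins moved 25 nucleotides downstream, the percentile of *NRD1* went from 20.4 to 43.3 and that of *RTR1* from 62.5 to 38.9, and with each gene's own lowest bin and first peak that of *NAB3* went from 52 to 31.7. *RRP6* lay above and *NRD1* below the intervals of all other members, while neighbours among *FCP1*, *RTR1* and *NAB3* overlapped. At the TES, 3 of the 5 genes had a lower signal than upstream of it, against 61.5% of all genes, which again is close to the share of all genes. The ratio of upstream to TES signal ranged from the 12.2 percentile at *RRP6*, where the signal rose, to the 99.2 percentile at *FCP1*.

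**Figure D1:**
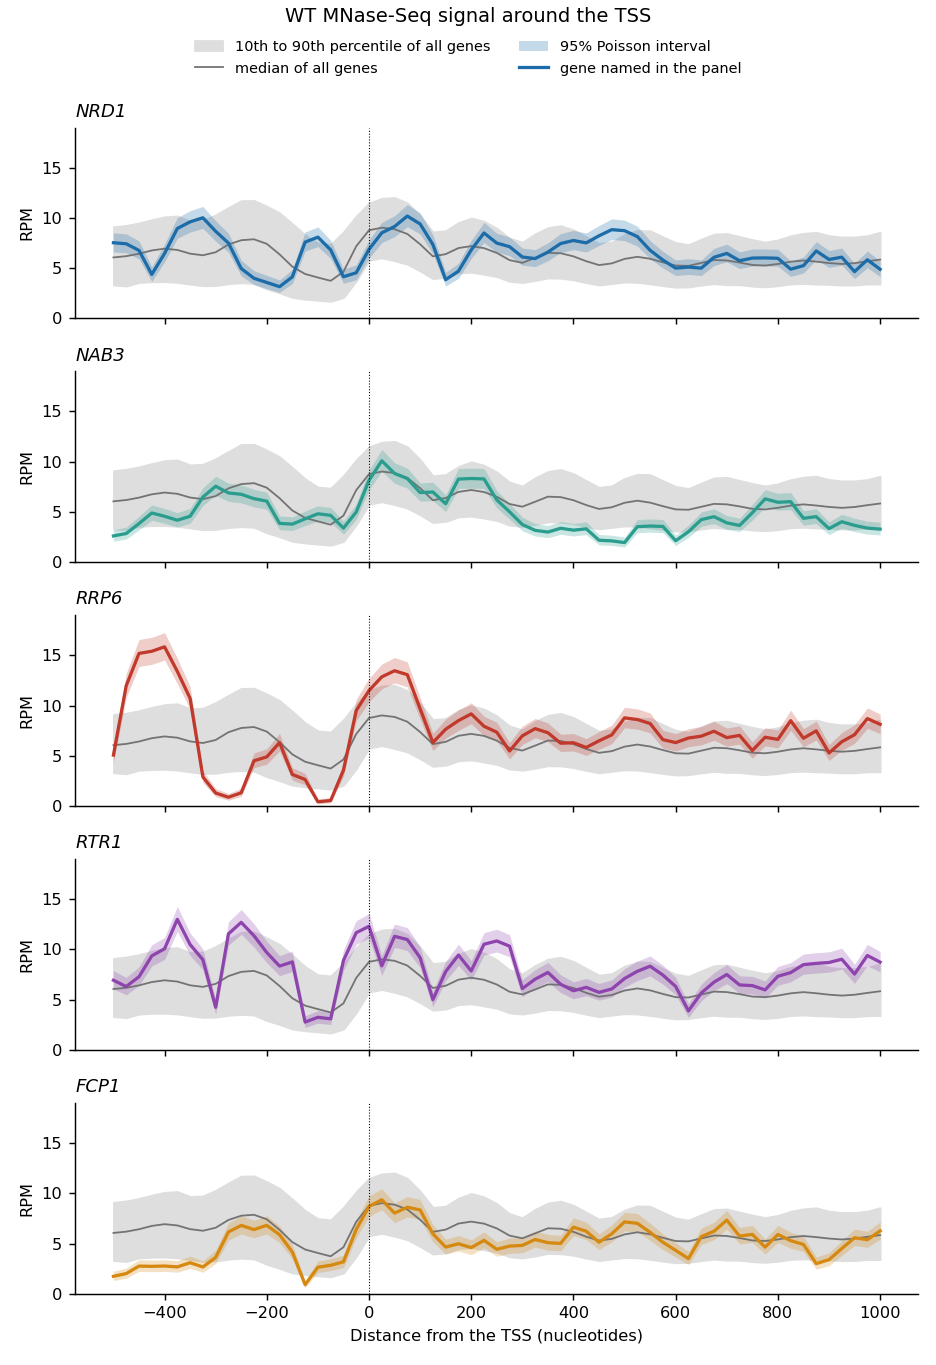
WT MNase-Seq signal in RPM against the distance from the TSS in nucleotides, 1 panel per gene. The coloured line is the gene with its 95% Poisson interval, the grey line the median and the grey band the 10th to 90th percentile of 2426 genes. *RRP6* falls to 0.42 RPM at -100 nucleotides, where *NRD1* holds a peak of 8.08 RPM.

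*NRD1* (YNL251C, chromosome XIV, coding sequence from 172588 to 174315, minus strand, R64) had the weakest contrast of depletion and +1 signal. The depletion bins held 6.65 RPM [5.82 to 7.60] and the +1 bins 8.67 RPM [7.70 to 9.74]. The first of these is at the 86.3 percentile of all genes and the second at the 48.2 percentile, so that the low ratio came with a high signal upstream of the TSS and not with a low +1 signal. Within these bins *NRD1* had a peak of 8.12 RPM at -105 nucleotides, between a trough of 3.12 RPM at -180 and another of 3.92 RPM at -40.7. At -100 nucleotides the signal of 8.08 RPM [7.14 to 9.10] ranked 176th from the highest, against a median of 4.06 RPM. The lowest bin of the upstream region thus lay at -175 nucleotides, farther from the TSS than the -100 nucleotides of the median gene. The width of this stretch below the gene's own mean was 134 nucleotides, close to the median of 131.

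Downstream of the TSS, *NRD1* had its highest peak of 10.2 RPM at 76.7 nucleotides, followed by peaks at 228, 484, 696, 878 and 976 nucleotides. The distances between these were 151, 256, 212, 182 and 98.02 nucleotides and so were uneven. A cosine of 140 to 190 nucleotides fitted over 0 to 1000 nucleotides had an amplitude of 0.11 of the mean, at the 12.2 percentile. The strength of the array was therefore low. The gene upstream is *RAD50*, which codes for a DNA double-strand break repair protein and is transcribed away from *NRD1* with 1094 nucleotides between the coding sequences. The sequence before the start codon of *NRD1* is shown to compare it with those of *NAB3*, *RTR1* and *FCP1*, and that of *RRP6* is not reported here. It covers 200 bases from 300 bases before the start codon (R64, chrXIV:174416-174615, minus strand), with a run of 7 T bases in capitals:
NRD1: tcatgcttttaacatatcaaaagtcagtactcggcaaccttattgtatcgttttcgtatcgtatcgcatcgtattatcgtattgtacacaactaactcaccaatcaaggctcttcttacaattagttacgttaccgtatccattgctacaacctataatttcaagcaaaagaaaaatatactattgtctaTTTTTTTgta
Runs of 7 or more A or T bases, searched on both strands, occur in the 300 bases before the start codon of 53.4% of genes.

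*NAB3* (YPL190C, chromosome XVI, 185317 to 187725, minus strand) codes for the RNA-binding partner of Nrd1 and had a middling contrast at the 5' end with a low signal over the gene. The depletion bins held 4.29 RPM [3.62 to 5.06] and the +1 bins 8.84 RPM [7.87 to 9.93], at the 48.4 and 51.3 percentiles. Its lowest upstream bin, 3.39 RPM at -50 nucleotides, was 0.70 of the gene's own mean and so shallower than that of 90.1% of genes. A small peak of 4.84 RPM at -93.4 nucleotides stood inside the depletion, lower than the 8.12 RPM of the corresponding peak of *NRD1*. The +1 peak lay at 27.7 nucleotides with 10.1 RPM and the next at 201 nucleotides with 8.33 RPM. Beyond it the signal dropped. From 100 to 1000 nucleotides the mean was 4.43 RPM, at the 8.9 percentile, and at 500 nucleotides the signal was 1.95 RPM [1.51 to 2.49], against a median of 5.91 RPM. At 775 nucleotides the profile was back at 6.30 RPM. *NRD1* and *NAB3*, whose proteins bind each other, were thus unlike over the gene body, where *NRD1* held 6.44 RPM.

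The bases before *NAB3* are shown because they hold the E-box CACGTG, the core of the sites of Cbf1 and Pho4. They are the 200 bases that start 300 bases before the start codon (chrXVI:187826-188025, minus strand), with this hexamer and a run of 7 T bases in capitals:
NAB3: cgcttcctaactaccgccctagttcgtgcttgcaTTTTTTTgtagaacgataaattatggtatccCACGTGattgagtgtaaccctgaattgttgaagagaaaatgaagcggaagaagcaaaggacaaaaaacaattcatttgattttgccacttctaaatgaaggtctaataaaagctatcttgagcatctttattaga
CACGTG occurs in the 300 bases before the start codon of 3.96% of genes. The match is one of letters and does not show that a factor is bound. Upstream is *COA2*, which codes for a cytochrome c oxidase assembly factor and lies on the same strand with 581 nucleotides between the coding sequences. The profiles of *COA2* around its TES and of *NAB3* around its TSS matched best with the *COA2* TES 231 nucleotides upstream of the *NAB3* TSS. Over the 16 bins shared there the correlation was 0.995 and the median difference 1.30%, while the next best distance gave 0.40. The signal at the 5' end of *NAB3* is therefore also that of the 3' end of *COA2*.

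*RRP6* (YOR001W, chromosome XV, 326832 to 329033, plus strand) codes for an exonuclease of the nuclear exosome and had the deepest depletion of the members. The depletion bins held 1.79 RPM [1.37 to 2.32], at the 4.0 percentile, and the +1 bins 12.7 RPM [11.5 to 14], at the 97.2 percentile. Both sides of the ratio were thus extreme, and the ratio ranked 32nd from the highest of 2426 genes. The lowest bin, at -100 nucleotides, held 0.42 RPM [0.23 to 0.71], which is 14 reads over a base. The depletion was also wide: the signal lay below the gene's own mean over 305 nucleotides, at the 95 percentile. This stretch was not empty throughout. It held a second trough of 0.88 RPM [0.58 to 1.25] at -275 nucleotides and, between both troughs, a peak of 6.40 RPM at -180 nucleotides, under the gene mean of 7.33 RPM. Upstream of it the signal rose to 16 RPM at -409 nucleotides, and the bin at -400 nucleotides ranked 4th from the highest of all genes.

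The +1 nucleosome of *RRP6* was centred at 52.7 nucleotides with 13.5 RPM, farther downstream than that of 83.5% of genes. Peaks followed at 196, 328, 510, 673, 825 and 869 nucleotides, at distances of 144, 132, 182, 163, 152 and 43.4 nucleotides. In all members a peak is a local maximum of the signal. Close peaks, such as those at 825 and 869 nucleotides, need not be separate nucleosomes. The amplitude of the best cosine was 0.17 of the mean, at the 54 percentile, which was the highest among the members. The gene upstream, *PHO80*, which codes for a cyclin of the phosphate response, lies on the same strand 701 nucleotides away. Among the distances that share at least 8 bins, none matched its TES profile to that of *RRP6* well, with a best correlation of 0.51. The best distance shared 8 bins, the fewest allowed, and so lay near the edge of the search. Distances farther upstream that share fewer bins were not tried. Whether the *RRP6* upstream peak is also that of the *PHO80* 3' end was therefore not settled by this search.

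*RTR1* (YER139C, chromosome V, 450563 to 451243, minus strand) codes for a phosphatase that removes Ser5-P from the CTD and had a high mean signal. The mean over the TSS window was 8.02 RPM, which ranked 66th from the highest. The depletion bins held 4.50 RPM [3.81 to 5.28] and the +1 bins 10.7 RPM [9.66 to 11.9], at the 52.2 and 84.2 percentiles. In its shape, *RTR1* had the narrowest depletion of the members. The signal lay below the gene's mean over 93.1 nucleotides, at the 22.9 percentile, and its lowest bin held 2.77 RPM [2.23 to 3.39] at -125 nucleotides. The bins at -150 and -50 nucleotides held 8.76 and 8.89 RPM, so that both edges were steep. The first downstream peak, 12.6 RPM, lay at -9.0 nucleotides and was followed by a peak of 11.6 RPM at 60.02 nucleotides. Upstream, peaks of 12.7 RPM at -251 nucleotides and 13 RPM at -374 nucleotides were separated by a trough of 4.17 RPM at -303. *RTR1* had 8 peaks in the bins from the TSS to 1000 nucleotides, more than the median of 6. This count includes the peak placed at -9.0 nucleotides, whose bin is the one at the TSS. The amplitude of the *RTR1* array was at the 13.1 percentile.

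The coding sequence of *RTR1* is 681 nucleotides long, so that its TSS window runs past the stop codon. Upstream, *EMP65*, which codes for a membrane protein of the endoplasmic reticulum, is transcribed away from it with 321 nucleotides between the coding sequences. The bases before *RTR1* are shown because they held none of the motifs searched. They are the 200 bases that start 300 bases before the start codon (chrV:451344-451543, minus strand), and no part is in capitals:
RTR1: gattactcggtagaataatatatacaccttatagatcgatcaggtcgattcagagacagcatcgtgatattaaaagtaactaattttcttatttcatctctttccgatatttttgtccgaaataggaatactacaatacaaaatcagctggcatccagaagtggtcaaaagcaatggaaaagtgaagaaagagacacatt
That these letters are not in this window says nothing about which factors act there.

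*FCP1* (YMR277W, chromosome XIII, 820256 to 822454, plus strand) codes for an essential phosphatase of the CTD. The gene had a deep depletion beside an ordinary +1 signal. The depletion bins held 2.39 RPM [1.90 to 2.99], at the 9.95 percentile, and the +1 bins 8.67 RPM [7.70 to 9.74], at the 48.4 percentile. *RRP6* and *FCP1* overlapped in the depletion bins within counting error, and they differed in the +1 bins. The low point of *FCP1* was sharp: the bin at -125 nucleotides held 0.91 RPM [0.61 to 1.29], which ranked 51st from the lowest, and the bins from -100 to -50 held 2.65 to 3.18 RPM. The width below the gene's mean was 129 nucleotides, at the 47.8 percentile, much less than the 305 nucleotides of *RRP6*. The +1 peak of 9.39 RPM lay at 20.9 nucleotides, and the upstream peak of 6.84 RPM lay at -205 nucleotides. Farther upstream, from -500 to -250 nucleotides, the mean was 3.37 RPM and ranked 64th from the lowest.

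That upstream stretch lies over *DSK2*, which codes for a ubiquitin-binding protein and is on the same strand with 307 nucleotides between the coding sequences. The *DSK2* profile around its TES matched that of *FCP1* best with the *DSK2* TES 102 nucleotides upstream of the *FCP1* TSS, with a correlation of 0.992 and a median difference of 1.45% over 16 bins. The next best distance gave 0.56. *DSK2* itself had a low body signal, 2.81 RPM, and its dip of 1.05 RPM around the TES is the *FCP1* promoter dip seen in the other table. The same 200 base window of *FCP1* (chrXIII:819956-820155, plus strand), with TTACCC and a run of 11 A bases in capitals, is shown because this run was the longest in the sequences shown before members:
FCP1: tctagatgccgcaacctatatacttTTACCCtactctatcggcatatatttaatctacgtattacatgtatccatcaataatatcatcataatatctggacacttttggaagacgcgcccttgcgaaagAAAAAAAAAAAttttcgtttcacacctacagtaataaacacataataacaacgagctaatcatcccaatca
In the 300 bases before the start codon, a longest run of 11 is at the 87.8 percentile of genes. TTACCC is the core of the Reb1 site, and on either strand it occurs in those 300 bases in 19.5% of genes.

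**Figure D2:**
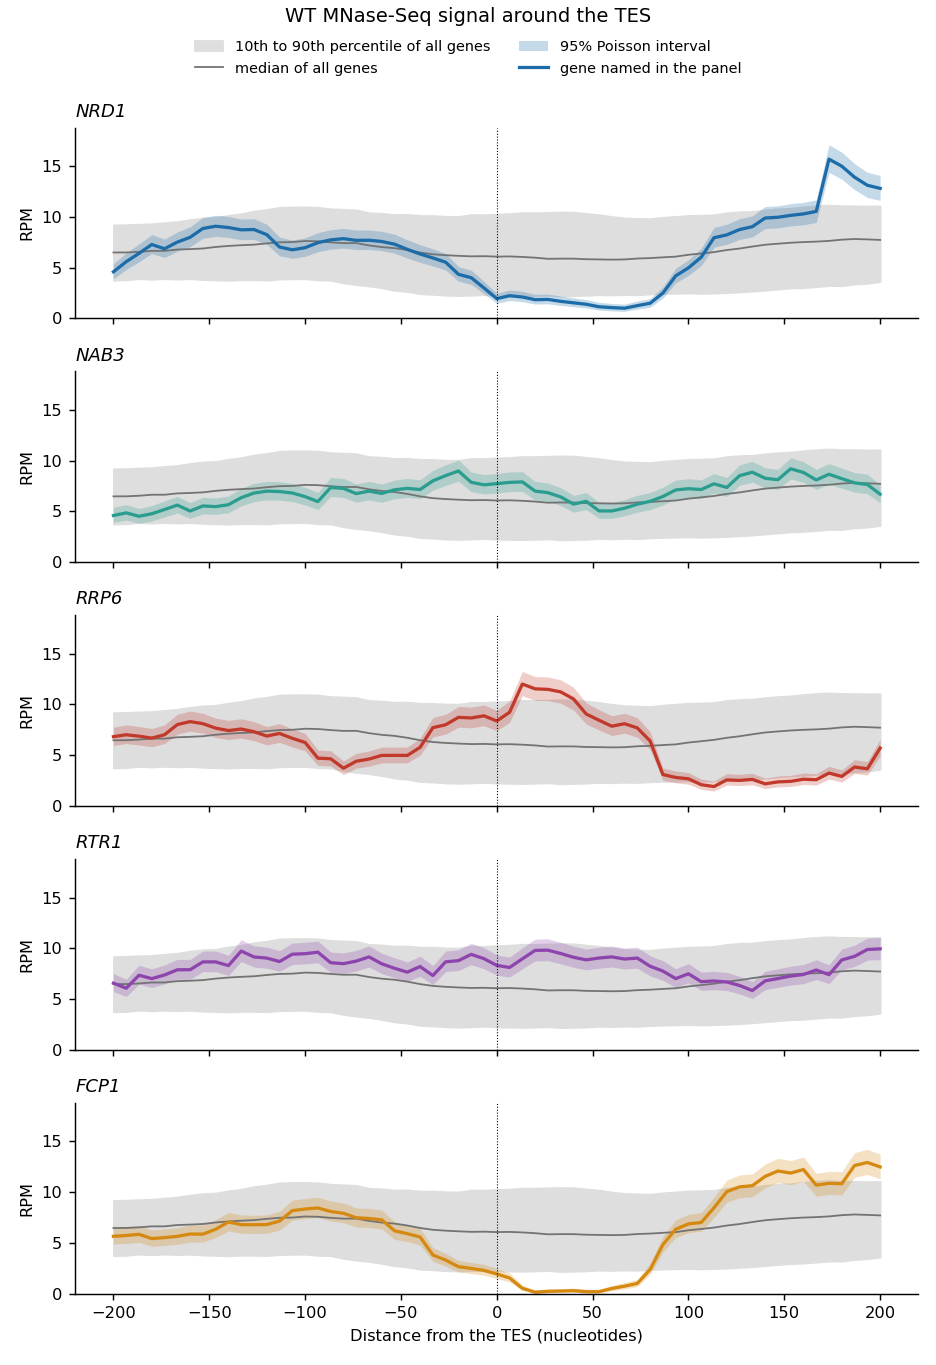
WT MNase-Seq signal in RPM against the distance from the TES in nucleotides, drawn as for the TSS. *FCP1* falls to 0.157 RPM at 20 nucleotides and *NRD1* to 0.99 RPM at 66.7, whereas *RRP6* peaks at 12 RPM at 13.3 nucleotides and *NAB3* and *RTR1* stay within the grey band.

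The 3' ends fell into different shapes. *NRD1* and *FCP1* had a stretch of low signal over the TES, *RRP6* had a peak there, and *NAB3* and *RTR1* were flat. At *FCP1* the upstream bins held 7.56 RPM [6.66 to 8.56] and the TES bins 1.23 RPM [0.88 to 1.67], a ratio of 6.15 [4.41 to 8.77]. The TES bins ranked 23rd from the lowest of 2426 genes. At 20 nucleotides the signal was 0.157 RPM [0.05 to 0.35], which is 5 reads over a base, and it lay between this and 0.305 RPM up to 53.3 nucleotides. The stretch below 50% of the window's mean was 106 nucleotides wide, at the 93.3 percentile. Beyond it the signal rose to 12.9 RPM at 193 nucleotides, and the mean over 120 to 200 nucleotides was at the 96 percentile.

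*NRD1* had the same form in a milder degree. The upstream bins held 7.82 RPM [6.88 to 8.81] and the TES bins 2.19 RPM [1.72 to 2.76], a ratio of 3.57 [2.74 to 4.68], at the 94.6 percentile, or the 86.7 percentile by its highest and lowest bins. The intervals of the *FCP1* and *NRD1* ratios overlapped slightly. The lowest bin, 0.99 RPM [0.68 to 1.39], lay at 66.7 nucleotides and the low stretch was 98.5 nucleotides wide. At 173 nucleotides the signal reached 15.7 RPM [14.4 to 17.1], which ranked 10th from the highest. The TES profiles of both genes had a correlation of 0.91 over 61 neighbouring bins, which are not independent.

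The gene downstream of *FCP1* is *PRM15*, which codes for a phosphoribomutase, and that downstream of *NRD1* is *MRPL17*, which codes for a mitochondrial ribosomal protein. Both lie on the same strand as the member, with 308 and 301 nucleotides between the coding sequences. Neither was analysed here, so that their promoters and the 3' ends of the members could not be told apart. The sequences between the genes are shown because both hold long T runs. They cover 250 to 51 bases before the start codons of *PRM15* (chrXIII:822513-822712, plus strand) and *MRPL17* (chrXIV:172337-172536, minus strand), and after them the same window of *ALG6*, downstream of *RRP6* (chrXV:329167-329366, plus strand), with runs of 7 or more A or T bases in capitals:
PRM15: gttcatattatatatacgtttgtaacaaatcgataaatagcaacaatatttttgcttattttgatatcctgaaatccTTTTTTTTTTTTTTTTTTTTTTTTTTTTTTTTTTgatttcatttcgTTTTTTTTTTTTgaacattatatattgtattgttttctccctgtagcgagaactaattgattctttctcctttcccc
MRPL17: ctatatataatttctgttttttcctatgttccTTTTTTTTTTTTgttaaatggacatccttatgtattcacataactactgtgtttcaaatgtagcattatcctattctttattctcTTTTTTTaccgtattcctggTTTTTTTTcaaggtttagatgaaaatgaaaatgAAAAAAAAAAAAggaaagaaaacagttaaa
ALG6: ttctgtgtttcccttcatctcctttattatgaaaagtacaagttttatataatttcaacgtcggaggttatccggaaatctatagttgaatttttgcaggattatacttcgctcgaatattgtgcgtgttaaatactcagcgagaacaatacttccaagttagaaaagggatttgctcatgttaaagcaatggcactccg
The run of 34 T bases, 136 to 169 bases after the *FCP1* stop codon, was the longest in that 300 base window of 2425 genes, and a run of 12 T bases lay at 182 to 193. After the *NRD1* stop codon a run of 12 T bases lay at 84 to 95 and a run of 12 A bases at 222 to 233, with shorter runs of 7 and 8 T bases between them. Runs of 12 or more were found after the stop codon of 11.4% of genes. *NAB3* and *RTR1*, with flat profiles, had longest runs of 6 and 5, and *RRP6* of 7. The runs are placed from the stop codons and the profiles from the TES, whose coordinates are not part of the values used. The runs could therefore not be placed within the profiles. The same holds for the motifs before the start codons. All 50-mers around the stop codons of the 5 genes occur once in the genome by exact match. The read length and the mismatches allowed in mapping are not given in the sources used here. The part of mapping in these signals was therefore not tested.

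Across all genes, longer runs went with a lower signal, with a wide spread. The 277 genes with a run of 12 or more had a median of 4.73 RPM in the TES bins and the other 2148 genes 6.19 RPM, with a correlation of -0.16 between the longest run and this signal over 2425 genes. The correlation with the lowest bin of the window was -0.24, and the 41 genes with a run of 20 or more had a median of 3.90 RPM in the TES bins. The genes with the next longest runs were *UPC2* with 33, *PUF3* with 30, *NOB1* with 28 and *MNL1* with 27, and their TES bins held 3.45, 8.67, 2.38 and 2.15 RPM. The part of the T runs in the profiles of *FCP1* and *NRD1* was not tested. Nor was that of the nuclease digestion itself, since the series holds no digest of DNA free of nucleosomes.

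**Figure D3:**
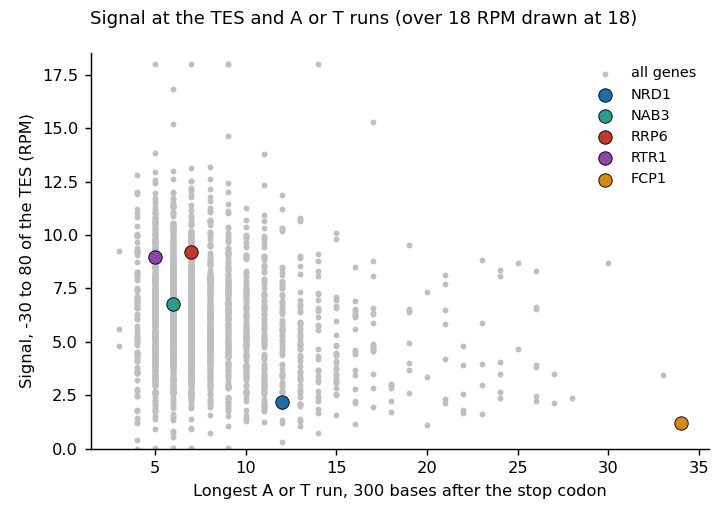
Signal of the TES bins in RPM against the longest A or T run in the 300 bases after the stop codon, 1 grey point per gene of 2425 and the 5 members in colour, with values over 18 RPM drawn at 18. *FCP1* lies at the longest run, 34, with 1.23 RPM, and *NRD1* at 12 with 2.19 RPM.

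*RRP6* had the opposite form at its 3' end. The upstream bins held 6.07 RPM [5.26 to 6.96] and the TES bins 9.19 RPM [8.18 to 10.3], a ratio of 0.66 [0.55 to 0.79], at the 12.2 percentile, or the 31.8 percentile by its highest and lowest bins. The peak of 12 RPM lay 13.3 nucleotides past the TES, where its bin was at the 96.2 percentile. A trough of 3.72 RPM lay before it at -80 nucleotides and a wider one of 1.92 RPM [1.48 to 2.45] after it at 113 nucleotides. The mean over 120 to 200 nucleotides, 3.02 RPM, was at the 5.9 percentile, whereas those of *NRD1* and *FCP1* were above the 95 percentile. *ALG6*, which codes for a glucosyltransferase of the N-glycosylation pathway, follows on the same strand with 383 nucleotides between the coding sequences. The profiles matched best with the *RRP6* TES 258 nucleotides upstream of the *ALG6* TSS, with a correlation of 0.989 and a median difference of 1.23% over 16 bins, and the next best distance gave 0.48. The peak over the *RRP6* TES is thus also the peak of 11.6 RPM at -227 nucleotides of *ALG6*, and the trough after it is the *ALG6* promoter dip, which was lowest at -150 nucleotides with 2.07 RPM.

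**Figure D4:**
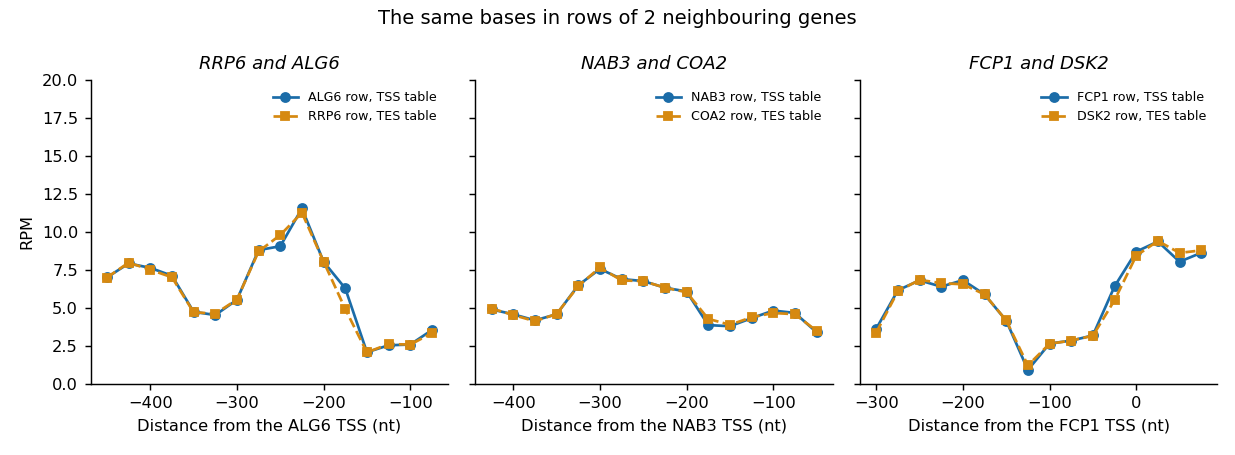
Signal in RPM against the distance from the TSS of the downstream gene in nucleotides, for bases that 2 neighbouring genes share. Circles are the row of the downstream gene in the TSS table and squares the row of the upstream gene in the TES table, placed at the best matching distance. The pairs follow each other with median differences of 1.23% to 1.45%.

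*NAB3* held 6.67 RPM [5.82 to 7.60] in the upstream bins and 6.79 RPM [5.93 to 7.73] in the TES bins, a ratio of 0.98 [0.81 to 1.19]. Its lowest bin within 200 nucleotides, 4.52 RPM, was higher than that of 88.7% of genes. *RTR1* held 9.02 RPM [8.04 to 10.1] and 8.99 RPM [7.99 to 10.05], a ratio of 1.00 [0.85 to 1.19], and its lowest bin of 5.85 RPM was higher than that of 97.1% of genes. With the highest bin upstream and the lowest near the TES in place of fixed bins, their percentiles fell from 36.6 to 14.5 at *NAB3* and from 38.9 to 1.55 at *RTR1*. Both genes thus had no resolved drop, and *RTR1* counts among the 3 lower genes by a difference within counting error. The downstream neighbour of *RTR1*, YER138W-A, faces it with 984 nucleotides between the coding sequences, and that of *NAB3*, *MIY2*, which codes for a deubiquitinase, lies on the same strand with 637. These are the longest downstream gaps among the members. The best match of the TSS and TES profiles of *RTR1* put its TES at 986 nucleotides with a correlation of 0.89 over 9 bins, and 941 nucleotides gave 0.79, so that the length of its transcript is not settled by these data.

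**Figure D5:**
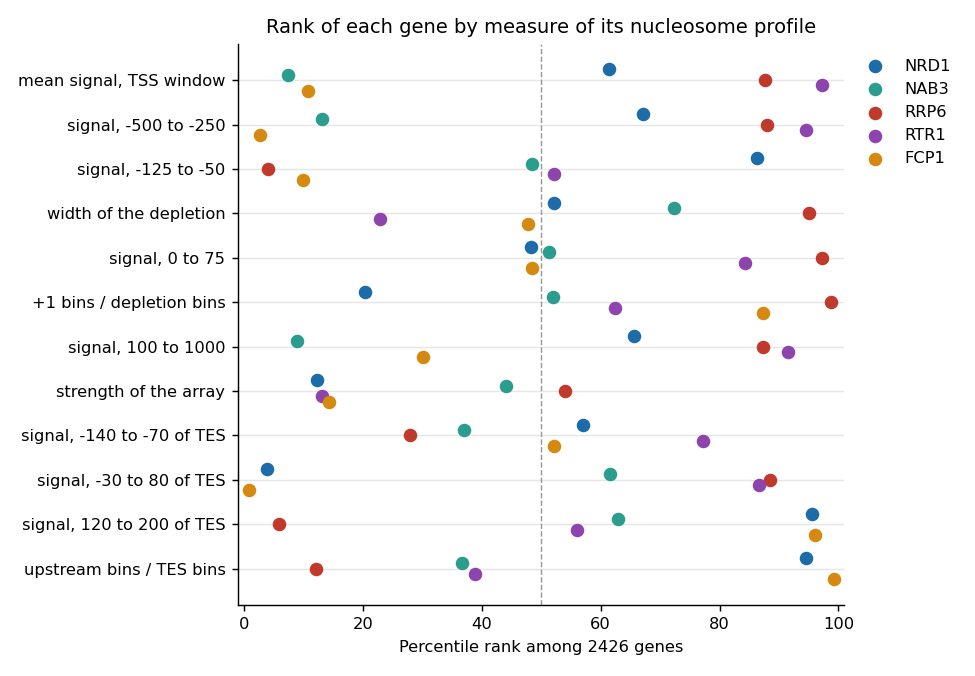
Percentile rank of the 5 genes among 2426 genes for 12 measures of the profile, 1 row per measure and 1 point per gene. For the signal of the TES bins the points run from the 0.93 percentile at *FCP1* to the 88.5 percentile at *RRP6*, while those for the +1 bins all lie at or above the 48 percentile.

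The profiles of the members were not alike as a group. The correlation between 2 members over the 61 bins at the TSS ran from -0.02 for *NRD1* with *RTR1* to 0.39 for *RTR1* with *NAB3*, and the median over all 2941525 pairs of genes was 0.20. At the TES they ran from -0.82 for *RRP6* with *FCP1* to 0.91 for *NRD1* with *FCP1*. The gene with the most similar TSS profile among all others was *FKH1*, a forkhead transcription factor gene, for *NRD1*, with a correlation of 0.75, and *EAF3*, a histone acetyltransferase subunit gene, for *NAB3*, with 0.81. It was *CHC1* for *RRP6*, with 0.86, and *UBP12*, a ubiquitin protease gene, for *RTR1*, with 0.74. Each is the highest of 2425 correlations and therefore high by choice. *CHC1*, which codes for the clathrin heavy chain, also had a wide depletion, of 278 nucleotides, with 2.70 RPM in the depletion bins.

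The wider pathway was read from lists of the exosome with the TRAMP complex, the cleavage and polyadenylation factors, the Rat1 exonuclease with its partners, the CTD kinases, phosphatases and isomerase, the RNAPII subunits and the Nrd1 complex with the cap-binding complex. Of 72 genes listed, 35 were measured, and these include the 5 members described above. All 35 had a lower signal in the depletion than at the +1 bins, and 22 of 35 a lower signal at the TES than upstream, against 91.3% and 61.5% of all genes. The ratio at the 5' end was above the median of all genes in 27 and below it in 8, with a median of 2.87 against 2.00, while the TES ratio was above in 16 and below in 19. Of the 8 exosome and TRAMP genes 6 were above the median at the 5' end, and of the 10 cleavage factor genes 7. Of the 9 CTD modifier genes 6 were above and of the 4 genes of the Nrd1 and cap-binding list 3, with *NRD1* below. These counts are a description without a test.

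Among these genes *RRP6* was not alone in its deep depletion. *RRP4*, which codes for a cap subunit of the exosome, had 1.76 RPM in the depletion bins and 11.1 RPM in the +1 bins, a ratio of 6.32. *RPO26*, a subunit shared by the nuclear RNA polymerases, had the highest ratio on the lists, 18.2, from 0.49 and 8.95 RPM. *CBC2*, the small subunit of the cap-binding complex, had 5.49. At the 3' end *FCP1* had the highest ratio, followed by *YSH1* with 4.35, *MTR4* with 4.29 and *CFT1* with 3.99. Ysh1 is the endonuclease and Cft1 a scaffold subunit of the cleavage and polyadenylation factor, and Mtr4 is the helicase of TRAMP.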

How the data were processed

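Wild type total histone MNase-Seq was analysed for 1 of 9 samples. According to the paper's methods, the authors mapped SOLiD reads to sacCer3 with bfast and drew average gene plots in RPM with ngs.plot, from 2 biological replicates per genotype. The deposited coverage signal was taken to be RPM from this step, which the methods do not state of the tables, and whether the MNase-Seq values pool replicates is not given in the sources used here. Nor are the version of ngs.plot, the read extension and the transcript annotation. Averaging into bins flattens narrow peaks and troughs. The tables hold 101 columns per gene, of which the outer 20 on each side repeat the edge and were left out. Their TSS and TES coordinates are not part of the values used.

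The depth follows from the edge values, of which 9704 of 9704 were whole multiples of 0.03002 RPM within 0.01, the worth of 1 read in 33313664. Intervals are exact Poisson at 95% on the reads over a base, and for ratios exact binomial (Clopper-Pearson). They cover counting error only. Peaks and troughs had a prominence of at least 10% of the gene mean and were placed with a parabola through 3 bins. A shared window was searched over distances allowed by the coding gap, with at least 8 bins, and the best correlation kept. Coding coordinates, neighbours and sequences are those of RefSeq R64, the assembly of sacCer3, in which 2425 of 2426 genes were found with the same strand.

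The members, bins and gene lists were chosen with earlier results of these data known. Some results on single genes are not reported here. The match with neighbours and the sequence features were added after the profiles were seen. Besides the members, the text names for 4 members the gene with the highest correlation, the annotated neighbours and, of the lists, genes in the outer 5% by either ratio. The genes with the next longest runs were named after their values were seen. Alternatives covered the bins, the genes ranked, a pseudocount of 1 RPM, interpolation, width and prominence. Simulated data were first used to test the positions of the lowest bin and the first downstream peak, the array period and the position of the lowest TES bin. The other computations across genes were not tested in this way. Scripts ran under Python 3.11.15 with pandas 2.3.3, scipy 1.17.1 and numpy 2.4.6, and figures were drawn with matplotlib 3.10.9.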

Additional observations from a re-analysis of the deposited data

How the results depend on the processing

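The count of 5 members with a depletion below the +1 signal held under each of the 4 placements of bins tried. The share of all genes was 90.8% with wider bins, 89.1% with bins moved upstream and 86.4% with bins moved downstream. With each gene's own lowest bin and first peak after it the share was 99.96%, because a lowest bin lies below a peak nearly by construction. The count thus does not set the members apart under any placement. The median percentile of the members' ratio at the 5' end, 62.5, ranged from 58.3 to 69.7 over 7 alternatives, and that of the TES ratio, 38.9, from 31.8 to 43.5 over 3. Single genes depended more on the bins: with bins moved 25 nucleotides downstream *NRD1* went from the 20.4 to the 43.3 percentile and *RTR1* from 62.5 to 38.9, while *RRP6* stayed at 94 or higher under every alternative. With the lowest bin and first peak of each gene *NAB3* went from 52 to 31.7. With the highest and lowest bins at the TES, *RTR1* went from 38.9 to 1.55, *NAB3* from 36.6 to 14.5 *RRP6* from 12.2 to 31.8, *NRD1* from 94.6 to 86.7 and *FCP1* from 99.2 to 96.9. The width of the *NAB3* depletion was 239 nucleotides below the midpoint of its lowest bin and first peak, against 159 below its mean. The cause was not tested for these. No paired analysis was possible because the library stands alone here, with no second group. The lack of a replicate limits every value to this library, and at 25 nucleotides per bin the positions at the TSS rest on interpolation.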

Other observations

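Nrd1 and Nab3 bind short motifs in RNA, and the sense strand of the first 300 coding bases was searched for TGTA and TCTT, core letters of such motifs. *NAB3* held 0 copies of both, at the 5.7 percentile of 2412 genes with a coding sequence of that length. It shares this lowest count with other genes and ranked 2136th from the highest. *NRD1* held 3, at the 72.6 percentile, and *RRP6*, *RTR1* and *FCP1* held 2 each, the median of all genes. At least 1 TGTA was found in 1295 of 2412 genes and at least 1 TCTT in 1771. These are matches of letters, and the binding of either protein was not analysed here.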
